A study of Rattus norvegicus with 15 samples.

Results

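Collagens and other genes of the extracellular matrix, 10 of the 10969 named genes on the arrays, were followed through kidneys of 5-week-old rats: Col1a1, Col1a2, Col3a1, Col5a2, Col4a1, Lamc1, Dcn, Bgn, Fn1 and Sparc. Every probe set that carries 1 of these symbols in the platform annotation was taken, which gave 43 of the 26379 probe sets on the 3 designs of oligonucleotide array, called A, B and C. Of these, 24 lie on array A, 2 on array B and 17 on array C. Col1a1 and Bgn had probe sets on array A alone, and Col4a1 on arrays B and C alone. A probe set is a group of short probes for 1 transcript, and its signal intensity, as deposited by the authors, is linear.

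Total RNA of 5 kidneys was hybridised to each design, 15 arrays in all. Kidneys 1 to 3 were from the Dahl salt-sensitive rat (Dahl S, n = 3), an inbred strain in which blood pressure rises with dietary salt. On arrays B and C, kidneys 4 and 5 were from a strain congenic for chromosome 10 (n = 2), which carries a piece of that chromosome from another strain on the Dahl S background. On array A, kidneys 4 and 5 are described as Dahl S, unlike those numbered 4 and 5 on B and C, so that their strain is unsettled here and their values are given one by one without a test. Both strains share the age of 5 weeks. The donor strain, the extent of the segment, sex, diet and treatment, and whether a kidney stands for 1 animal or a pool, are not in the labels. Neither is it stated that the same number on different designs is the same kidney or RNA. A p-value therefore reflects how far these samples scatter, and that scatter may be technical.

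The extracellular matrix of the kidney has a fibrillar part in the interstitium and around vessels, and a sheet-like part, the basement membrane, under tubules, endothelium and podocytes. Chains of type I collagen (Col1a1, Col1a2), type III (Col3a1) and type V (Col5a2) assemble into fibrils, and the small proteoglycans decorin (Dcn) and biglycan (Bgn) bind them. Type IV collagen (Col4a1 with its partner Col4a2) and laminins, of which Lamc1 encodes the gamma 1 chain, build the basement membrane. Fibronectin (Fn1) is an adhesive glycoprotein, and Sparc encodes osteonectin, a secreted glycoprotein that binds collagen. In a growing kidney interstitial fibroblasts, vascular smooth muscle cells, mesangial cells and podocytes are among the cells that make these proteins.

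Of the 10 genes, 5 (Col1a2, Col4a1, Col5a2, Lamc1 and Sparc) had a RefSeq promoter window of assembly GRCr8, and stretches of 3 are shown: Col1a2 and Col4a1, whose signals in kidney 4 were below the Dahl S mean on every probe set, and Sparc, most of whose probe sets were above it there. The search covered 250 bases before each annotated start, on both strands, for the motifs CCAAT and TATAAA, then for the motif GGAGG and lastly for the motif GGGCGG. Capitals mark TATAAA and the reverse complement of CCAAT in Col1a2, GGAGG on the gene's own strand in Sparc, and the reverse complement of GGGCGG in Col4a1. The Col1a2 stretch is chr4:33518307-33518426 on the plus strand, the Sparc stretch chr10:40038867-40038986 on the minus strand, and the Col4a1 stretch, chr16:84885521-84885596 on the plus strand, holds all 76 bases between the starts of Col4a1 and Col4a2, which are read in opposite directions.
Col1a2: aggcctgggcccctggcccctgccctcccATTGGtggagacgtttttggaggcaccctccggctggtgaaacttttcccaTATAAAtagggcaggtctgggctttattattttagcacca
Sparc: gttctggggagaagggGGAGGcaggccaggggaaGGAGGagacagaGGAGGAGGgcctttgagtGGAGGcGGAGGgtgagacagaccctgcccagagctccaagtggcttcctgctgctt
Col4a1 to Col4a2: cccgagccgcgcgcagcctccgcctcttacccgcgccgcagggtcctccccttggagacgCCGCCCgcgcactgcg

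Col1a2 was the only one of the 5 with TATAAA, at 170 bases before its annotated start, and CCAAT was in Col1a2 and Col4a1. Sparc held GGAGG 7 times in its 250 bases, 6 of them in the stretch shown, Col1a2 6 times, Lamc1 4 times, Col4a1 2 times and Col5a2 1 time. GGGCGG was found in Col4a1 and, 5 times, in Lamc1. Among all 33469 windows the shares were 34.0% for CCAAT, 12.9% for TATAAA, 64.7% for GGAGG and 30.5% for GGGCGG, so that GGAGG in all 5 genes is a common match. These matches describe the letters of the windows and say nothing of what binds there. Sparc and Col1a1 lie on chromosome 10, the chromosome of the congenic segment. Col1a2 lies on chromosome 4, Col3a1, Col5a2 and Fn1 on 9, Dcn on 7, Lamc1 on 13, Col4a1 on 16 and Bgn on X.

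The median signal of an array was between 294.5 and 334.3 on A, 472.8 and 519.5 on B, and 491.3 and 524.4 on C. Proximal tubule markers were strong in every kidney, with 8 of 9 listed genes past the filter on array A and a summed signal between 114141 and 149020. Of the 43 probe sets, 39 passed the filter on low signals (a mean over 5 arrays of at least 319.5 on A, 485.8 on B and 510.3 on C), 22 on A, 2 on B and 15 on C. The ratio of the 3' to the 5' probe set of Gapdh, a measure of RNA integrity, was 1.07, 1.065 and 1.072 in kidneys 1 to 3 and 1.04 and 1.043 in kidneys 4 and 5 on array A. On array C it was 1.094, 1.09 and 1.108 against 1.053 and 1.045, and on array B 1.177, 1.111 and 1.144 against 1.074 and 1.171. The Gapdh ratio thus separates kidneys 4 and 5 from the others on A and C but not on B. The same ratio of beta-actin separates them on A, at 1.322 and 1.347 against 1.422 to 1.552, but not on C, at 1.369 and 1.452 against 1.383 to 1.503. The part of these ratios in the differences given here was not tested.

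No probe set of the 10 genes passed an adjusted p of 0.05 between the strains, 0 of 2 on array B and 0 of 15 on array C (limma with Benjamini-Hochberg adjustment over the design). Over all tested probe sets 0.0912% passed on B, 4 of 4385, and 0.0% on C, 0 of 4420. At an unadjusted p under 0.05 in the limma fit, 3 of the 15 on C were lower in congenic kidneys and none was higher, beside 3.03% lower over all probe sets of C. On B the count was 0 of 2, beside 2.08%. The calls depend on single arrays. Without any 1 of kidneys 1 to 4 there were 0 on B and 0 on C, and without congenic kidney 5 there were 31 on B and 35 on C, where the spread comes from the Dahl S kidneys alone and the lone congenic kidney is assumed to vary like them.

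The fibrillar collagens had their lowest median signal in kidney 4 on both designs that hold them, and kidney 4 was the lowest of the 5 kidneys on 7 of 8 probe sets of A and 6 of 8 of C. Over 8 probe sets of Col1a1, Col1a2, Col3a1 and Col5a2 on array A, the median log2 deviation from the mean of kidneys 1 to 3 was -0.61 in kidney 4 and -0.23 in kidney 5. Over 8 probe sets of Col1a2, Col3a1 and Col5a2 on array C it was -0.60 and -0.23. The same medians over all tested probe sets were -0.05 and 0.02 on A and -0.0051 and -0.0035 on C. All 8 were below the Dahl S mean in kidney 4 on both arrays, and in kidney 5 all 8 on A and 7 on C. Several of these probe sets read 1 gene, so the counts are not of independent genes.

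**Figure D1:**
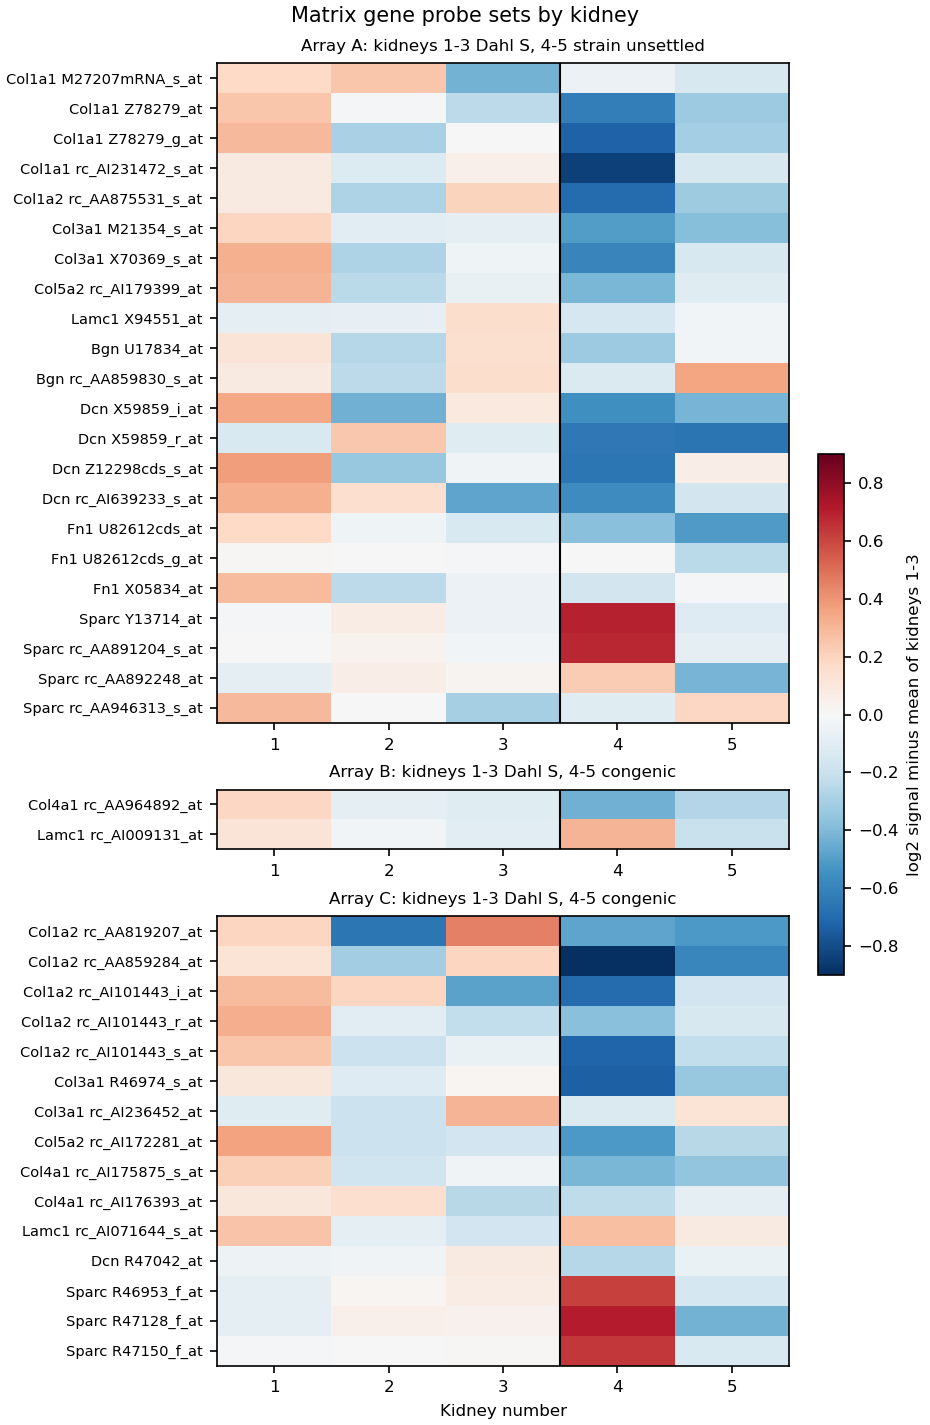
Log2 signal of each matrix gene probe set past the filter, minus its mean over kidneys 1 to 3, for each kidney (columns) on arrays A, B and C (blocks); blue is lower, red higher, and the black line parts kidneys 1 to 3 from 4 and 5. The collagen rows are blue in kidney 4, 8 of 8 fibrillar probe sets on A and on C, and most Sparc rows are red there.

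Col1a1 encodes the alpha 1 chain of type I collagen. Its probe set Z78279_at gave 4537.9, 3805.0 and 3242.6 in kidneys 1 to 3, 2486.3 in kidney 4 and 3053.1 in kidney 5. Probe set Z78279_g_at gave 4062.6, 2710.6, 3336.4, 2007.5 and 2683.8, and rc_AI231472_s_at 6217.4, 5396.8, 6068.2, 3279.6 and 5313.9, in the same order. In these 3 probe sets both kidney 4 and kidney 5 lay below each of kidneys 1 to 3, and kidney 4 was at 0.650, 0.604 and 0.557 of the Dahl S mean. The other probe set, M27207mRNA_s_at, did not show it: it read 9823.1, 10271.2 and 6434.2 in kidneys 1 to 3, 8353.9 in kidney 4 and 7839.2 in kidney 5, so that kidney 3 was the lowest. The probe sets of Col1a1 thus disagree, and its Dahl S kidneys themselves spread 1.60-fold on that probe set and 1.15-fold on rc_AI231472_s_at.

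Col1a2 encodes the alpha 2 chain of the same molecule and has 1 probe set on A and 5 on C. On A, rc_AA875531_s_at read 3431.5, 2676.5 and 3733.4 in kidneys 1 to 3, 2013.2 in kidney 4 and 2603.4 in kidney 5. On C, rc_AA859284_at read 4106.8, 3043.6 and 4316.4 in Dahl S and 1988.6 and 2509.6 in congenic kidneys. Neither pair overlapped with the Dahl S values. On C the mean was 3822 ± 682 (SD, n = 3) against 2249 ± 368 (SD, n = 2), a log2 difference of -0.76 (SE 0.20) or 1.69-fold lower, with an unadjusted p of 0.00593 and an adjusted p of 0.749 in the limma fit.

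The other probe sets of Col1a2 on C pointed the same way, and all of them but rc_AI101443_s_at overlapped between the strains. Probe set rc_AI101443_s_at gave 17427.5, 12834.2 and 14057.4 in Dahl S and 8896.6 and 12571.6 in congenic kidneys, a log2 difference of -0.47 (SE 0.20, adjusted p = 0.794 by limma) without overlap. Probe set rc_AI101443_r_at, for the same transcript, gave 8384.2, 6217.8 and 5738.1 against 5146.5 and 6062.6, a difference of -0.26 (SE 0.20), and the congenic value of kidney 5 lay within the Dahl S range. Probe set rc_AI101443_i_at gave 3820.1, 3589.3 and 2249.3 against 1942.8 and 2777.7, a difference of -0.43 (SE 0.27), with the same overlap. The widest Dahl S spread was that of rc_AA819207_at, with 11844.9, 6592.8 and 14191.6 against 7430.9 and 7222.0. There the Dahl S kidneys differed 2.15-fold among themselves, and the difference of -0.50 (SE 0.30) had both congenic values above Dahl S kidney 2.

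Col3a1 encodes type III collagen, which is found with type I in interstitial fibrils. On A, M21354_s_at read 3257.3, 2652.8 and 2686.9 in kidneys 1 to 3, then 2016.2 and 2182.4 in kidneys 4 and 5. Probe set X70369_s_at read 7898.5, 5234.2 and 6158.9, then 4196.0 and 5740.5. On the first both later kidneys were below all Dahl S kidneys, and on the second kidney 4 alone. On C, R46974_s_at read 1627.7, 1394.4 and 1530.4 in Dahl S and 910.0 and 1193.2 in congenic kidneys, 1518 ± 117 (SD, n = 3) against 1052 ± 200 (SD, n = 2). Its log2 difference was -0.54 (SE 0.17), 1.45-fold lower, with an unadjusted p of 0.0134 and an adjusted p of 0.775 by limma. The other Col3a1 probe set on C, rc_AI236452_at, showed none of this: 2422.6, 2279.6 and 3219.0 against 2380.4 and 2841.3, a difference of -0.0051 (SE 0.19).

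Col5a2 encodes a chain of type V collagen, which takes part in starting fibrils. It read 1175.0, 803.0 and 908.0 in kidneys 1 to 3 of array A, 713.3 in kidney 4 and 880.0 in kidney 5. On C it read 865.2, 588.4 and 595.2 in Dahl S and 470.5 and 566.1 in congenic kidneys. On C both congenic values were below each Dahl S value, with a log2 difference of -0.38 (SE 0.21, adjusted p = 0.853 by limma), and on A kidney 5 lay within the Dahl S range.

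Counted over the fibrillar collagens, kidneys 4 and 5 were both below each of kidneys 1 to 3 in 5 of 8 probe sets on A and 4 of 8 on C. Over all tested probe sets the share was 10.1% on A, 9.44% on B and 12.2% on C. Kidney 4 was the lowest of the 5 in 7 of 8 on A, beside 28.5% over all probe sets, and in 6 of 8 on C, beside 21.6%. The median strain difference of the 8 probe sets on C was -0.45, all 8 negative, where all 4420 tested probe sets had a median of -0.0099 with 2303 lower and 2117 higher. Without congenic kidney 4 the median was -0.23, with 7 of 8 negative, and without congenic kidney 5 it was -0.60.

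The Dahl S kidneys were not alike either. Kidney 1 was above kidney 2 in 7 of 8 fibrillar probe sets on A and in 8 of 8 on C, where over all tested probe sets it was above in 1956 of 4411 and 2167 of 4420. The median deviation was 0.22 in kidney 1 and -0.18 in kidney 2 on A, and 0.22 and -0.19 on C. Kidney 2 and kidney 5 were thus at like medians on both arrays, though kidney 2 is Dahl S on every design.

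**Figure D2:**
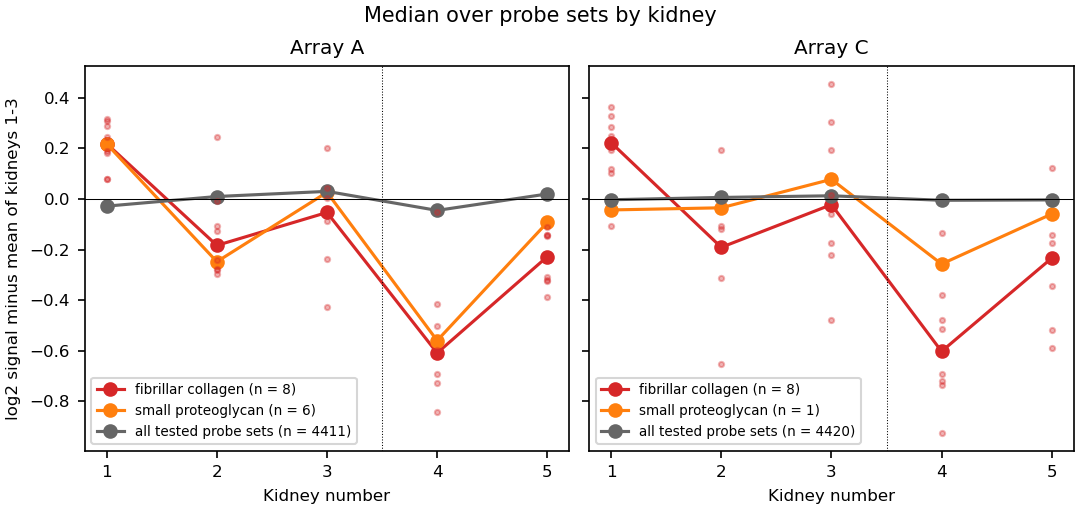
Median log2 signal relative to the mean of kidneys 1 to 3, by kidney number, for fibrillar collagens (red, 8 probe sets per array, small dots are the single probe sets), small proteoglycans (orange, 6 probe sets on A and 1 on C) and all tested probe sets (grey); lines join points of 1 set and imply no order. The fibrillar median is highest in kidney 1 (0.22 on both arrays) and lowest in kidney 4 (-0.61 on A, -0.60 on C), and the grey line stays near 0.

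Marker signals of several cell types also varied between the kidneys. In bulk tissue fewer cells of a type and less RNA per cell cannot be told apart. On array A, 4 of 8 listed fibroblast markers (Pdgfra, Vim, Thy1 and S100a4) passed the filter, with a summed signal of 6651.8, 4867.1 and 6252.9 in kidneys 1 to 3, 4571.8 in kidney 4 and 5264.5 in kidney 5. The sum was lowest in kidney 4, next lowest in kidney 2 and highest in kidney 1. On array B, 2 of 8 passed (Thy1 and Cd34), summing to 2231.6, 1360.4 and 2491.7 in Dahl S and 1785.0 and 1698.3 in congenic kidneys. On C none of the 8 did. Smooth muscle and pericyte markers summed to 7773.2, 6099.7, 6208.7, 5516.7 and 6932.8 on A (4 of 8 genes) and to 12164.2, 9420.8 and 11002.0 against 8618.3 and 10136.2 on C (5 of 8). Leukocyte markers summed to 10678.7, 7614.8, 8099.2, 5897.0 and 8476.2 on A (3 of 9). On B (3 of 9) they summed to 12422.2, 7935.9 and 10774.1 against 8445.9 and 10443.4. On C (3 of 9) the order of the sum was another, 7076.6, 5875.9 and 8528.8 against 7182.3 and 5149.4. The brightest marker there, Cd74, read 3875.9, 3796.4 and 5702.9 against 5045.0 and 2200.4. Laptm5 and Cd68 on C were lowest in kidneys 2 and 4, as were the sums on A and B. The summed collecting duct signal stood the other way on A. There 5 of 7 genes summed to 14482.0, 14648.2 and 16165.7 in kidneys 1 to 3, 19846.6 in kidney 4 and 17085.8 in kidney 5. In kidneys 4 and 5, Aqp2, Aqp3 and Avpr2 were above all Dahl S kidneys. That is 3 of 5, beside 8.82% over all probe sets of A. Scnn1g did not follow, with 746.1, 753.8 and 803.6, then 760.7 and 684.2. Slc4a1 was inside its Dahl S range in kidney 4 (1696.6) and above it in kidney 5 (2168.9). On B, Slc4a1 was lowest in kidney 4, at 7001.4. Of 3 endothelial markers on C, Tie1 read 818.5, 689.1 and 486.0 against 384.5 and 252.1. Its log2 difference was -1.06 (SE 0.27, adjusted p = 0.739 by limma), whereas Cdh5 and Emcn differed by -0.0022 and 0.17. The sum over the 3 was 4721.8, 4260.1 and 4209.8 against 4799.5 and 4106.8. On B, Tek and Cdh5, 2 of 3 markers, were above all Dahl S kidneys in both congenic kidneys, beside 7.73% over all probe sets. Some listed markers were too weak to be read. Ptprc, a leukocyte marker, was under the filter on A and C, and in 3 kidneys of C below the floor of 153.6. On A the smooth muscle markers Cnn1 and Des were under the filter too. The part of these cells in the collagen signals was not tested.

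The small proteoglycans that bind collagen fibrils behaved like the fibrillar collagens in kidney 4 of array A. All 6 probe sets of Dcn and Bgn there were below the Dahl S mean in kidney 4, with a median of -0.56, and the median in kidney 5 was -0.09. Decorin's X59859_i_at read 5745.0, 3344.3 and 4801.7 in kidneys 1 to 3, then 3080.6 and 3380.2. Probe set Z12298cds_s_at read 2537.2, 1540.8 and 1907.6, then 1243.8 and 2039.0, and rc_AI639233_s_at 1428.5, 1271.5 and 824.1, then 772.6 and 1021.1. In these 3 kidney 4 was the lowest, whereas kidney 5 lay within the Dahl S range. The weak X59859_r_at read 505.9, 658.7 and 516.2, then 356.1 and 353.0, the only Dcn probe set of A with both below.

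Dcn on array C read 1289.5, 1297.1 and 1402.3 in Dahl S and 1111.9 and 1275.3 in congenic kidneys. Both congenic values were below the Dahl S range, by little: the log2 difference was -0.16 (SE 0.14, adjusted p = 0.879 by limma). Biglycan's U17834_at on A read 9245.3, 7136.2 and 9436.1, then 6822.6 and 8414.1, and rc_AA859830_s_at read 1344.4, 1080.6 and 1421.0, then 1161.9 and 1631.0. Kidney 4 was lowest on the first only, and on the second kidney 5 was the highest of all, so that the Bgn probe sets gave no common order.

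Type IV collagen, the network former of basement membranes, was lower in congenic kidneys on 2 probe sets of 2 designs, short of the threshold. On array B, rc_AA964892_at of Col4a1 read 20640.3, 17197.0 and 16878.8 in Dahl S and 13467.3 and 15109.3 in congenic kidneys. The mean was 18239 ± 2086 (SD, n = 3) against 14288 ± 1161 (SD, n = 2), a log2 difference of -0.35 (SE 0.15, adjusted p = 0.998 by limma). On C, rc_AI175875_s_at read 9017.4, 6856.7 and 7593.4 against 5831.1 and 6073.4, a difference of -0.39 (SE 0.16), 1.31-fold lower, with an unadjusted p of 0.0452 and an adjusted p of 0.788 by limma. Neither set of values overlapped between the strains. Over all tested probe sets, both congenic kidneys were below all Dahl S kidneys in 9.44% on B and 12.2% on C. Another probe set of C, rc_AI176393_at, did overlap, with 6279.0, 6482.5 and 4909.8 against 4988.7 and 5522.1 and a difference of -0.16 (SE 0.17). The fourth, rc_AI175875_i_at, was under the filter and is given as values only: 348.4, 552.2 and 464.7 against 324.0 and 271.1.

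Col4a2, which starts 76 bases from Col4a1 on the other strand and encodes its partner chain, was measured on array B by rc_AI013912_at. It read 21279.4, 17898.9 and 17363.1 in Dahl S and 16378.9 and 19532.3 in congenic kidneys, a log2 difference of -0.07 (SE 0.16, adjusted p = 0.998 by limma). Kidney 4 was the lowest for both chains, but kidney 5 was above Dahl S kidneys 2 and 3 for Col4a2 and below them for Col4a1. The difference between the 2 chains was not tested.

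Lamc1, the laminin gamma 1 chain of the same membrane, was highest in kidney 4 on B and C and lowest there on A. On B it read 2776.4, 2520.7 and 2397.7 in Dahl S and 3166.0 and 2225.4 in congenic kidneys, so that the congenic kidneys were the highest and the lowest of the 5. The log2 difference was 0.05 (SE 0.18, adjusted p = 0.998 by limma), and without congenic kidney 4 it was -0.20. On C it read 5178.6, 4113.4 and 3845.4 against 5243.9 and 4588.1, a difference of 0.18 (SE 0.17, adjusted p = 0.885). On A it read 1468.3, 1478.2 and 1741.2 in kidneys 1 to 3, then 1404.7 and 1530.8, with kidney 4 the lowest. The 3 designs gave no common order of the kidneys for Lamc1.

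**Figure D3:**
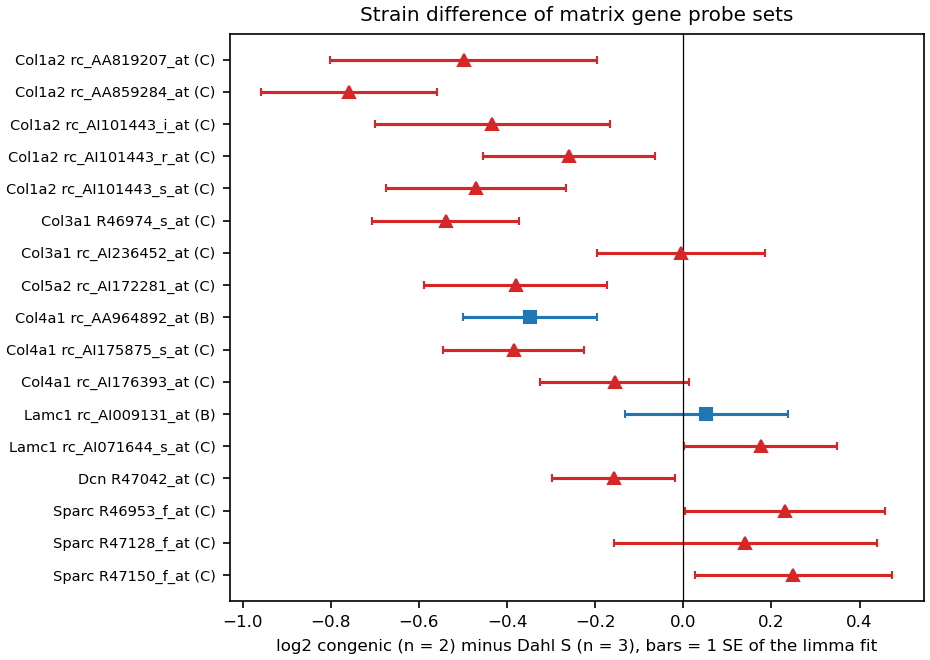
Log2 difference, congenic (n = 2) minus Dahl S (n = 3), of the 17 matrix gene probe sets tested on arrays B (blue squares) and C (red triangles); bars are 1 standard error of the limma fit, and the vertical line is no difference. Fibrillar collagens lie between -0.76 and -0.0051, and the 3 Sparc probe sets between 0.14 and 0.25 with wide bars.

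Sparc ran against the collagens in kidney 4 and against itself in kidney 5. All 3 of its probe sets on array C were highest in congenic kidney 4 and lowest in congenic kidney 5. Probe set R46953_f_at read 3306.2, 3539.0 and 3656.2 in Dahl S and 5365.7 and 3135.8 in congenic kidneys. Probe set R47128_f_at read 2902.4, 3164.8 and 3154.5 against 5003.0 and 2292.6, and R47150_f_at 3056.7, 3078.4 and 3098.1 against 4787.9 and 2797.0. Dahl S values were close, with the highest over the lowest at 1.11, 1.09 and 1.01, while kidney 4 was 1.53-, 1.63- and 1.56-fold above the Dahl S mean. Kidney 5 was at 0.897, 0.746 and 0.909 of it.

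Because the 2 congenic kidneys stood on either side of Dahl S, the strain difference of Sparc was close to its standard error or below it. It was 0.23 (SE 0.23), 0.14 (SE 0.30) and 0.25 (SE 0.22) on the log2 scale for the 3 probe sets, with adjusted p from 0.879 to 0.953 by limma. Without congenic kidney 4 the median of the 3 turned to -0.16, and without congenic kidney 5 it was 0.64. All 3 probe sets carry the ending _f_at, which in this naming marks probes shared within a sequence family, so that a related transcript could add to them.

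On array A, Sparc has 4 probe sets and 3 of them were highest in kidney 4. Probe set Y13714_at read 4782.7, 5032.4 and 4638.5 in kidneys 1 to 3, 7769.9 in kidney 4 and 4444.4 in kidney 5. Probe set rc_AA891204_s_at read 1594.3, 1636.9 and 1571.3, then 2561.1 and 1510.0, and rc_AA892248_at 16766.0, 18570.2 and 18077.8, then 20871.1 and 13320.7. Kidney 4 was 1.61-, 1.60- and 1.17-fold above the Dahl S mean, and kidney 5 was the lowest of the 5 on all 3. The remaining probe set, rc_AA946313_s_at, went otherwise with 4166.1, 3415.0 and 2759.8, then 3147.8 and 3872.8, and its Dahl S kidneys spread 1.51-fold.

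Kidney 4 stood at least 1.4-fold above each other kidney in 2 of 4 Sparc probe sets on A and in 3 of 3 on C. The share over all tested probe sets was 2.04% on A and 1.65% on C. The limit of 1.4 was set with earlier results of these data known.

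Of the podocyte markers, Podxl and Ptpro were highest in kidney 4, and Synpo and Wt1 gave no common order. On array B, Podxl, a sialoprotein of the podocyte surface, read 2469.1, 2550.9 and 3010.4 in Dahl S and 5105.7 and 3188.2 in congenic kidneys. On C it read 1156.5, 1326.6 and 777.4 against 1887.1 and 1245.6. On A, Ptpro read 808.9, 862.4 and 1016.6, then 1243.9 and 978.8, whereas Synpo read 468.6, 510.1 and 419.5, then 511.5 and 398.2. Of 6 listed podocyte markers 2 passed the filter on A and 1 each on B and C. On Synpo kidney 4 was level with kidney 2. Wt1 was under the filter on both arrays that hold it: on B it read 221.5, 236.6 and 228.6 against 364.2 and 185.7, and on A 140.7, 149.0 and 15.6, then 116.7 and 109.2. In kidney 5 the podocyte markers did not agree among themselves. Podxl and Ptpro were above the Dahl S mean there, Synpo on A and Wt1 on B were at their lowest, and Wt1 on A lay inside its Dahl S range. Of the Sparc probe sets, 6 of 7 were below the Dahl S mean in kidney 5. The part of podocytes in the Sparc signal was not tested.

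**Figure D4:**
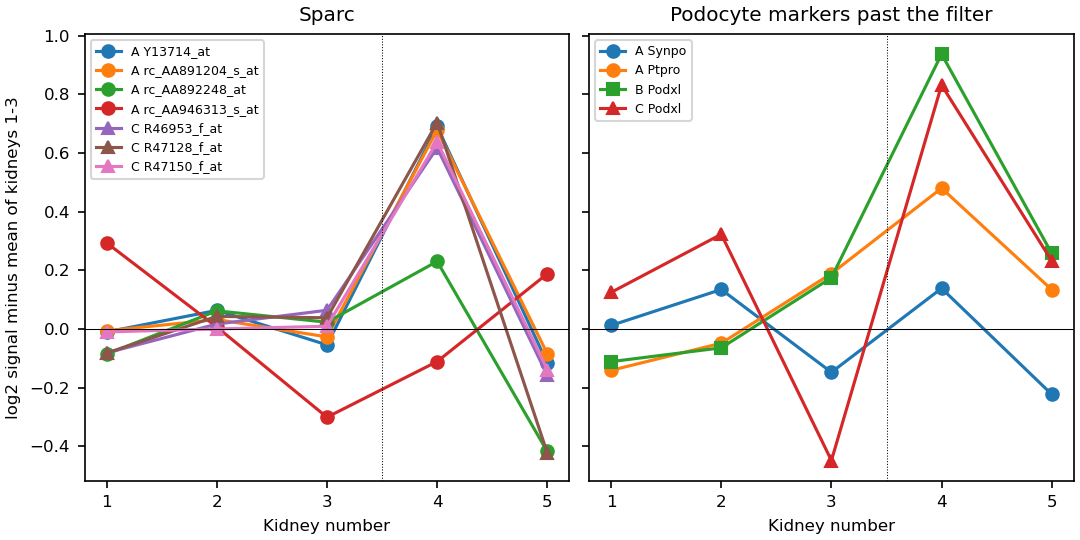
Log2 signal relative to the mean of kidneys 1 to 3, by kidney number, for the 7 Sparc probe sets (left) and the podocyte markers past the filter (right); circles are array A, squares B and triangles C, and lines join points of 1 probe set and imply no order. Sparc stands at 1.53 to 1.63 times the Dahl S mean in kidney 4 on the 3 probe sets of C, and Podxl is at its highest there on B and C.

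Fibronectin was measured by 5 probe sets on A and 1 on C, of which 3 passed the filter, all on A. The brightest, X05834_at, read 6929.0, 4840.3 and 5493.6 in kidneys 1 to 3, then 5067.9 and 5622.0, within the Dahl S range. Probe set U82612cds_at read 667.3, 574.7 and 535.7, then 454.3 and 414.1, both below that range. Probe set U82612cds_g_at read 897.9, 892.6 and 882.8, then 893.8 and 754.3, with kidney 5 alone below. The order of kidneys therefore differed between Fn1 probe sets. The 3 under the filter read 61.9, 124.6, 66.0, 65.4 and 61.3 (M28259cds_at), 76.2, 125.7, 212.9, 135.8 and 153.9 (X05831cds_at), and on C 138.5, 40.9 and 117.3 against 125.2 and 163.3 (rc_AI102830_at), in kidney order. With no tested probe set, fibronectin gave no strain comparison.

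Over all 10 genes, array A had kidneys 4 and 5 both below kidneys 1 to 3 in 7 of 22 probe sets, beside 10.1% over all probe sets, and both above in 0, beside 8.82%. Array C had 6 of 15 both below, beside 12.2%, and 0 above, beside 10.2%. Array B had 1 of 2 both below, beside 9.44%, and 0 above, beside 7.73%. The median strain difference on C was -0.26, with 11 of 15 lower and 4 higher, the 4 being Sparc on 3 probe sets and Lamc1 on 1. On both A and C the fibrillar collagens had their lowest median in kidney 4 and most Sparc probe sets their highest value, with the exceptions given above (Sparc rc_AA946313_s_at on A among them). Agreement between the arrays was not tested. If the same RNA was hybridised to both designs, the second is no independent sample of the kidneys.

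Beyond the 10 genes, 8 lists of other matrix genes with 167 entries were read from the same fits, and no member passed an adjusted p of 0.05 on B (0 of 26 tested) or C (0 of 37). On B 16 were lower and 10 higher in congenic kidneys, with a median of -0.05, and on C 24 lower and 13 higher, with a median of -0.04. The medians over all probe sets were -0.0052 and -0.0099. At an unadjusted p under 0.05 in limma stood 2 of 26 genes on B and 1 of 37 on C, all lower. Over all tested probe sets 2.08% were lower at that limit on B and 3.03% on C. Fbn1, the microfibril protein fibrillin 1, was at 1502 ± 143 (SD, n = 3) in Dahl S and 1075 ± 143 (SD, n = 2) in congenic kidneys on B, a log2 difference of -0.48 (SE 0.16, adjusted p = 0.998 by limma). On C its probe set read 1282.8, 1241.9 and 1346.9 against 1061.1 and 1273.4, a difference of -0.15 (SE 0.15), with kidney 5 inside the Dahl S range. Tgm2, a transglutaminase that crosslinks matrix proteins, read 7861.3, 6756.5 and 6072.4 against 2725.4 and 5746.7 on B, a difference of -0.79 (SE 0.31). Loxl2, which crosslinks collagen through lysines, read 918.1, 694.9 and 920.4 against 354.5 and 640.8 on C, a difference of -0.81 (SE 0.26, adjusted p = 0.775 by limma).

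By list, the matrix glycoproteins and elastic fibres had 3 of 5 lower on B and 6 of 6 on C, with a median of -0.22 on C. Emilin1, an elastic fibre protein, read 2820.3, 2497.0 and 2333.9 against 2086.9 and 2249.8 there, without overlap. Both congenic kidneys were below all Dahl S kidneys in 2 of these 6, beside 12.2% over all probe sets of C. Other fibrillar and fibril-associated collagens were lower in 2 of 2 on B and 2 of 2 on C, by medians of -0.09 and -0.06 only. Other basement membrane genes were lower in 3 of 3 on B and 3 of 4 on C, with medians of -0.06 and -0.29. Nid1, the nidogen that links laminin to type IV collagen, read 5142.4, 6242.5 and 5520.5 against 2789.8 and 5391.0 on C, low in kidney 4 alone. Col4a3 was low in kidney 5 alone on C, with 831.4, 881.4 and 1080.8 against 863.7 and 416.1, a log2 difference of -0.63 (SE 0.30).

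Collagen synthesis and crosslinking genes were lower in 3 of 4 on B and 3 of 8 on C, with medians of -0.04 and 0.03. Lox, a lysyl oxidase, was at 1757 ± 288 (SD, n = 3) against 2058 ± 466 (SD, n = 2) on C, and Pcolce, an enhancer of procollagen cleavage, at 2199 ± 394 against 1914 ± 178, opposite ways and within the spread. Proteases and their inhibitors were higher in 1 of 1 on B and lower in 3 of 5 on C. Other proteoglycans were higher in 2 of 3 on B and 2 of 2 on C, and matrix receptors higher in 3 of 4 on B and lower in 3 of 4 on C. Genes listed for the TGF-beta pathway, which differ in their roles in it, were lower in 3 of 4 on B and 4 of 6 on C, with medians of -0.07 and -0.20. On B they were Smad1 (-0.21), Smad6 (-0.11), Eng (-0.03) and Ski (0.04). On C the receptor gene Tgfbr1 read 1111.4, 855.6 and 1117.2 against 749.1 and 835.1, and Smad3, its signal transducer, 1130.2, 1292.7 and 1575.3 against 988.8 and 1078.4. Neither overlapped between strains, and their adjusted p was 0.806 and 0.810 by limma. In this list 2 of 6 genes on C had both congenic kidneys below all Dahl S kidneys. Over all 8 lists it was 6 of 37 on C, beside 12.2% over all probe sets. Smad6 and Ski were higher on C, by 0.08 and 0.07.

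On array A, 53 genes of these lists passed the filter. Kidneys 4 and 5 were both below kidneys 1 to 3 in 8 of them, beside 10.1% over all probe sets of A, and both above in 4, beside 8.82%, so that neither count lies far from the background. The 8 were Col5a1, Gpc1, Eln, P4ha1, Serpinh1, Ctsl, Tgfb3 and Ltbp1, and the 4 were Lamb2, Sdc1, Timp3 and Mep1b, all named after their values were seen. Serpinh1, the collagen chaperone Hsp47, read 6252.4, 5375.3 and 4742.2 in kidneys 1 to 3, 3112.3 in kidney 4 and 4339.0 in kidney 5. P4ha1, a subunit of prolyl 4-hydroxylase, which hydroxylates collagen chains, read 1089.9, 1021.1 and 1228.0, then 822.3 and 911.5. In both kidney 4 was the lowest on A. On C, however, P4ha1 read 1445.0, 1688.8 and 1199.2 against 1277.1 and 1729.0, a log2 difference of 0.06 (SE 0.20), with kidney 5 the highest. The beta subunit P4hb, which has other partners as well, read 11462.5, 10701.8 and 11620.0, then 11456.5 and 11382.9, within the Dahl S range. Timp3, an inhibitor of metalloproteinases, stood the other way with 2385.6, 2350.0 and 2247.3, then 3076.3 and 2400.9, but on B and C kidney 4 lay inside its Dahl S range.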

How the data were processed

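Total RNA of rat kidneys was measured on 15 single-channel arrays. The deposited values give each probe set a signal intensity on a linear scale, and the software behind them is not given in the sources used here. Each array was found to be scaled already, with a mean of 1000.6 to 1001.4 once the top and bottom 2% were left out, and that scale was kept. Whether a background had been subtracted is unknown.

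Each design was processed alone. Signals under the 25th percentile of its 5 arrays were set to that percentile (85.1 on A, 140.1 on B, 153.6 on C) and taken to log2. Control probe sets and those with a mean under the median of the design were left out, which kept 4411 probe sets of array A (8799 in all), 4385 of array B (8791) and 4420 of array C (8789). Congenic minus Dahl S was fitted with limma 3.58.1 (lmFit, eBayes) in R 4.3.3, with Benjamini-Hochberg adjustment over the design at 0.05. The procedure was tested on simulated data. The number of arrays limits the precision.

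Symbols came from the platform annotation, updated to RefSeq GRCr8; that assembly also gave the chromosomes and promoters. A probe set with more than 1 symbol was left unnamed. All probe sets of the 10 genes are given. Of the other lists only some genes are named, and these are not always the ones with the smallest p on a design. A gene with several probe sets is shown there by its brightest. The genes, lists and tests were chosen with earlier results of these data known. Alternatives were other scalings, floors, no filter, an intensity trend, array weights and leaving out each array.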

Additional observations from a re-analysis of the deposited data

Results flagged for a closer look

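On array A the strain of kidneys 4 and 5 is unsettled, so they entered no test between strains. In kidney 4 of that array, 3 Sparc probe sets lay more than 3 SD above the Dahl S mean and above each Dahl S kidney. The signals were 7769.9 on Y13714_at, where the Dahl S mean was 4818 ± 199 (SD, n = 3), 2561.1 on rc_AA891204_s_at, where it was 1601 ± 33.3, and 20871.1 on rc_AA892248_at, where it was 17805 ± 933. An SD from 3 kidneys is itself imprecise, and the 3 probe sets read 1 gene in 1 kidney. The rule took high values of the 10 genes only, and falls of more than 3 SD were present on A too. Col1a1 rc_AI231472_s_at read 3279.6 in kidney 4, where the Dahl S mean was 5894 ± 437. In kidney 5, Sparc rc_AA892248_at read 13320.7, and Fn1 U82612cds_g_at read 754.3, where the mean was 891 ± 7.66. The share of such values over all probe sets was not computed. No group held the 4 samples that a check for single outlying arrays needs.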

How the results depend on the processing

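No paired analysis was possible because the strains share no kidney number, Dahl S being 1 to 3 and congenic 4 and 5. The 17 tested member differences were recomputed under 7 other settings and without each array, 204 values in all. Of these, 196 kept their direction, 8 reversed and 0 passed the threshold, the lowest adjusted p by limma being 0.254.

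Reversals under other settings were those of Col3a1 rc_AI236452_at, a difference near 0, which was 0.019 under quantile scaling and 0.034 with array weights. Leaving out each array in turn gave a range of -0.13 to 0.15 for it, -0.20 to 0.31 for Lamc1 on B, and for Sparc -0.16 to 0.62 (R46953_f_at), -0.42 to 0.70 (R47128_f_at) and -0.14 to 0.64 (R47150_f_at). The medians on C, recomputed in this way after seeing the data, ran from -0.60 to -0.23 for the fibrillar collagens and from -0.16 to 0.64 for Sparc. All lows of Sparc and Lamc1 were without congenic kidney 4.

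Calls over the whole design were 4 on B and 1 under quantile scaling, median scaling, floors at the 10th and 40th percentile, and array weights, and 0 to 31 without 1 array. On C they were 0, 2 without the filter, 1 with an intensity trend and 0 to 35 without 1 array. Dahl S means under other scalings stayed within 1 SD in 84 of 86 values.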
